A study of Rattus norvegicus with 56 samples.

Results

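The comparison described here set the myocardium of DMO-exposed fetal rats whose ventricular septum was intact (the non-VSD group, 7 samples) against the myocardium of control fetuses (the NC group, 7 samples), which together are 14 of the 56 samples of the series. Samples were chosen by group label only, and every microRNA with enough reads was tested. The series profiled microRNAs in fetal myocardium, amniotic fluid and maternal serum of a rat model of ventricular septal defect (VSD). All fetuses were Sprague-Dawley rats collected on embryonic day 19. Dams of the non-VSD group received dimethadione (DMO), the active metabolite of the anticonvulsant trimethadione and a known cardiac teratogen, by repeated oral gavage during organogenesis, whereas dams of the NC group received distilled water. Fetuses with a visible external malformation were not used, so the non-VSD group is a selected set of exposed fetuses that developed a closed septum. RNA came from wax blocks of heart tissue and was made into TruSeq small RNA libraries. The dam or litter of each fetus was not given, so p-values measure the spread between these samples, some of which may be littermates. This comparison asks how exposure to DMO changed myocardial microRNAs in the absence of the defect.

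MicroRNAs are short RNAs cut from a hairpin precursor, from which a 5p arm and a 3p arm can both be released. The arm that is loaded into an Argonaute protein pairs through its seed, bases 2 to 8 from the 5′ end, with target messenger RNAs and lowers their output. In the heart, miR-1, miR-133, miR-208 and miR-499 are made by muscle cells, miR-126 by endothelium, miR-143 and miR-145 by smooth muscle, and miR-144, miR-451 and miR-486 by the erythroid cells of the blood.

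Mature sequences of the microRNAs on which the results turn are given from RefSeq (rat assembly GRCr8), each with its seed in capitals. Names were matched to RefSeq for 419 of the 456 tested microRNAs. The first set holds the 5 microRNAs whose ranges did not overlap between the groups.
miR-218a-5p: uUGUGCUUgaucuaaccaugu
miR-155-5p: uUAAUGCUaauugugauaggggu
miR-101a-3p: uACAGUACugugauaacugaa
miR-101b-3p: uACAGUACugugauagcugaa
miR-542-3p: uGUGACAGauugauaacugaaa

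The second set holds 6 of the 8 upregulated microRNAs, among them both arms of miR-132 and a pair from the miR-290-295 cluster.
miR-190a-5p: uGAUAUGUuugauauauuaggu
miR-132-5p: aCCGUGGCuuucgauuguuacu
miR-132-3p: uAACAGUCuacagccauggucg
miR-291a-3p: aAAGUGCUuccacuuugugugcc
miR-295-3p: aAGUGCUAcuacuuuugggugu
miR-547-3p: aUUGGUACuucuuuaagugaga

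The third set holds downregulated microRNAs, with both arms of miR-451 shown because they come from 1 hairpin.
miR-144-5p: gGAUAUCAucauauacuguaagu
miR-451-5p: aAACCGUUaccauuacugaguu
miR-451-3p: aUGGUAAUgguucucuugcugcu
miR-142-5p: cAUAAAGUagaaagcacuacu
miR-7a-5p: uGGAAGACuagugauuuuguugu
miR-6329: aAUGUGACucagcuaucugaaca

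miR-101a-3p and miR-101b-3p differ by 1 substitution, A16G, with positions counted from the 5′ end of miR-101a-3p, and therefore share a seed. How reads matching both were assigned was not given, so the split between this pair is uncertain. The seeds of miR-291a-3p and miR-295-3p share the letters AGUGCU, shifted by 1 base, and are therefore not identical.

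Total counts ranged from 3982546 to 8316564 in the non-VSD group and from 4366457 to 9371130 in the NC group, and 566 to 590 and 549 to 603 microRNAs had at least 1 read. At this depth, 3 reads in a library correspond to 0.32 to 0.753 CPM (counts per 1e6 reads). Of 661 microRNAs listed, 456 passed the filter on low counts, 205 did not and were not tested, and 4 of those had no read in any of the 14 samples. All 12 muscle microRNAs tested, which include the cardiac marker miR-208a-3p, had reads in every sample. The library NC2 stood apart from the others. Its median rank correlation with the rest of its group was 0.906, against 0.929 to 0.976 in the other 13 libraries. Its summed level of the muscle microRNAs was 12798 CPM against 71494 to 233630 CPM in the other 6 NC samples. The epithelial microRNAs (miR-200 and miR-183 families and others) of NC2 summed to 19077 CPM against 1277 to 7742 CPM, and its red cell microRNAs to 2517 CPM against 17514 to 79413 CPM. Values without NC2 are therefore given beside several of the results.

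With the thresholds of the study (p-value under 0.05, and non-VSD level at least 2 times or at most 0.5 times that of NC), 19 of 456 microRNAs (4.17%) were differentially expressed (DE-microRNAs). Of these, 8 (1.75%) were upregulated and 11 (2.41%) were downregulated in the non-VSD group. The p-value alone, from edgeR's quasi-likelihood test, was under 0.05 for 80 microRNAs (17.5%), of which 39 were higher (8.55%) and 41 were lower (8.99%). In the following, "higher" and "lower" without "regulated" refer to these. Adjustment over all 456 tests by the Benjamini-Hochberg method left 1 microRNA under 0.05 (0.219%) and 18 under 0.1 (3.95%), so most values below describe candidates at an unadjusted threshold. Without NC2, 19 of 455 microRNAs were under 0.05 after adjustment in edgeR, 6 higher and 13 lower. An exact permutation test of log2 CPM over the 3432 ways to divide 14 samples, two-sided, gave a p under 0.05 for 77 microRNAs (16.9%), including 12 of the 19 DE-microRNAs. The median log2 fold change over all tested microRNAs was −0.07, and 198 (43.4%) had a positive value. Scaling to total counts in place of the trimmed mean of M values (TMM) moved the log2 fold changes up by a median of 0.21. It then gave 16 upregulated and 4 downregulated DE-microRNAs, 10 of which were among the 19.

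**Figure D1:**
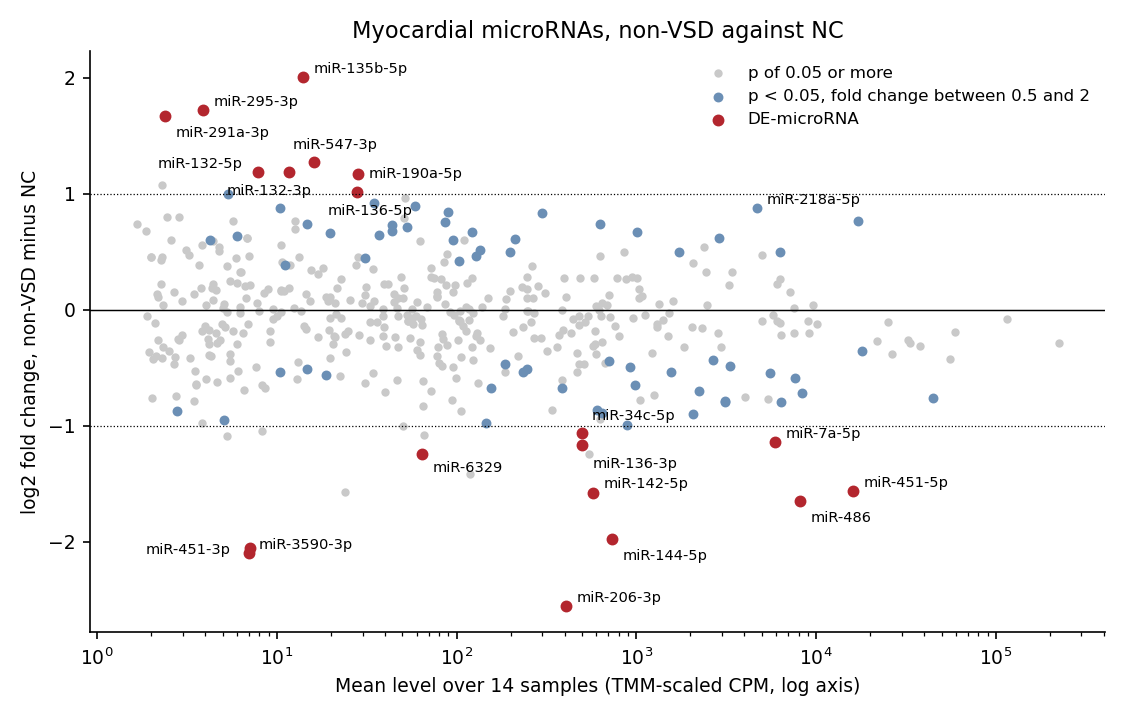
Log2 fold change (non-VSD over NC) of the 456 tested microRNAs against their mean level in CPM on a log axis, with 1 point per microRNA and the DE-microRNAs marked. The 8 upregulated DE-microRNAs lie at low levels, with no sample above 82.9 CPM, whereas the 11 downregulated ones include the abundant miR-7a-5p, miR-486 and miR-451-5p.

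The clearest separation between the groups was seen for 5 microRNAs (1.1% of those tested), each of which had every non-VSD sample on one side of every NC sample. For all 5 the exact permutation p was 0.000583, two-sided, which is the smallest that 7 against 7 samples can give. Complete separation fixes this value, so it adds no evidence beyond the choice of these 5. It is not adjusted for the number of microRNAs tested. miR-218a-5p, which is carried in introns of the Slit genes, had a level of 5007 to 7262 CPM (median 5949) in the non-VSD group and 2209 to 4040 CPM (median 3504) in controls. The difference was 0.88 on the log2 scale (SE 0.17), and miR-218a-5p was the 1 microRNA that remained under 0.05 after adjustment in edgeR (adjusted p = 0.0428). miR-155-5p, made from the Bic transcript of activated immune cells, lay at 79.8 to 164 CPM (median 101) against 39.5 to 76.7 CPM (median 67.3). The difference was 0.75 on the log2 scale (SE 0.21, edgeR adjusted p = 0.0911). Both were therefore higher in all 7 exposed samples, although neither reached a 2-fold change.

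The other 3 of these microRNAs were lower. The miR-101 pair, best known as repressors of the histone methyltransferase Ezh2, moved together. miR-101a-3p had a level of 731 to 2013 CPM (median 1419) in the non-VSD group and 2339 to 3221 CPM (median 2766) in the NC group. The corresponding levels of miR-101b-3p were 1662 to 2759 CPM (median 2267) and 3012 to 5376 CPM (median 3937). Log2 fold changes in edgeR were −0.90 (SE 0.22, adjusted p = 0.0686) and −0.78 (SE 0.17, adjusted p = 0.0533), so neither reached the 2-fold threshold. Without NC2 they were −0.90 (edgeR adjusted p = 0.0376) and −0.83 (edgeR adjusted p = 0.0375). miR-542-3p, from an X-linked cluster, lay at 4737 to 7991 CPM (median 6136) against 8121 to 10472 CPM (median 9043). Its log2 fold change of −0.58 (SE 0.14, edgeR adjusted p = 0.0707) depended on the scaling, since scaling to total counts gave −0.35, which did not pass the test. Without NC2 it was −0.60 (edgeR adjusted p = 0.0376).

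**Figure D2:**
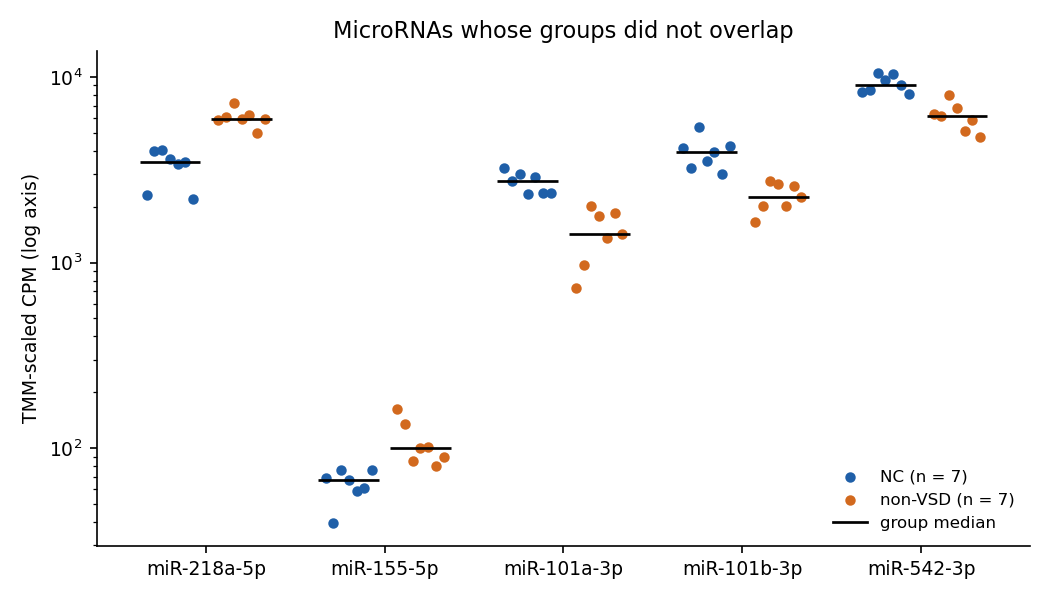
Level in CPM (log axis) of the 5 microRNAs whose group ranges did not overlap, with 1 point per sample, 7 non-VSD and 7 NC. miR-218a-5p and miR-155-5p lie higher and the miR-101 pair and miR-542-3p lie lower in every non-VSD sample.

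Among the 8 upregulated DE-microRNAs, 3 had the lowest p-values. miR-190a-5p, located within the gene of the cytoskeletal protein talin 2, was measured at 18.3 to 56.2 CPM (median 44.7) in the non-VSD group and 9.7 to 32.9 CPM (median 15) in controls. This amounted to 1.17 on the log2 scale (SE 0.32, edgeR adjusted p = 0.0911), and 4 of 7 exposed samples exceeded every control. miR-132 is induced by the transcription factor CREB and shares a transcript with miR-212. Its 5p arm lay at 4.99 to 17.8 CPM (median 9.96) against 2.77 to 7.22 CPM (median 5.02), and its 3p arm at 6.73 to 35.9 CPM (median 10.8) against 5.15 to 9.96 CPM (median 6.67). The log2 fold changes were 1.18 (SE 0.33, edgeR adjusted p = 0.0911) for the 5p arm and 1.19 (SE 0.35, edgeR adjusted p = 0.0926) for the 3p arm. The 5p arm was above every control in 5 of 7 exposed samples and the 3p arm in 6 of 7. miR-212-3p, which has the miR-132-3p seed, had a log2 fold change of 0.80 (SE 0.46) and did not pass the test.

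The miR-290-295 cluster is the main microRNA cluster of pluripotent embryonic stem cells. Of its 6 members tested, 2 were upregulated and none was lower, with a median log2 fold change of 0.91 against −0.07 over all tested microRNAs. The member with the highest mean level, miR-293-5p (13.2 CPM), had a negative log2 fold change of −0.455 and did not pass the test. miR-295-3p lay at 2.56 to 15.7 CPM (median 4.13) against 0.303 to 3.49 CPM (median 1.42), with a log2 fold change of 1.72 (SE 0.54, edgeR adjusted p = 0.118). miR-291a-3p was at 1.99 to 9.26 CPM (median 2.52) against 0.0822 to 1.99 CPM (median 1.14), and its log2 fold change was 1.67 (SE 0.55, edgeR adjusted p = 0.126). These are low levels: the 2 microRNAs rested on 255 and 153 reads over the non-VSD group and 77 and 46 reads over the NC group. The summed level of the cluster overlapped between the groups. It was 15.85 to 70.4 CPM (median 23) in the non-VSD group and 2.22 to 38 CPM (median 18.9) in the NC group. The highest sum was that of non-VSD7 and the lowest that of NC2. The log2 fold changes of miR-295-3p and miR-291a-3p were 1.26 and 1.23 without non-VSD7, and 1.52 and 1.41 without NC2.

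miR-547-3p, from an X-linked rodent cluster, was measured at 12.8 to 28.4 CPM (median 25.4) in the non-VSD group and 1.32 to 16.9 CPM (median 8.76) in the NC group. With a log2 fold change of 1.27 (SE 0.42, edgeR adjusted p = 0.126), it lay above every control in 5 of 7 exposed samples. The remaining upregulated DE-microRNAs were less stable. miR-136-5p, transcribed antisense to Rtl1 in the imprinted Dlk1-Dio3 region, lay at 8.34 to 55.7 CPM (median 45.9) against 7.71 to 41.1 CPM (median 13.4). On the log2 scale the difference was 1.02 (SE 0.44, edgeR adjusted p = 0.225), and leaving out any 1 of 9 samples (non-VSD3, 4, 5 and 6 and NC1, 3, 4, 5 and 7) raised the unadjusted p to 0.05 or more. miR-135b-5p, which can repress the Wnt pathway gene Apc, ranged over 2.99 to 82.9 CPM (median 14.7) against 0.146 to 17.3 CPM (median 1.43). The fitted change was 2.003 on the log2 scale (SE 0.90, edgeR adjusted p = 0.25) with all samples and 1.15 without non-VSD4, whereas without NC2 it was 2.66. It no longer passed the test without non-VSD2, 3 or 4 or NC1, 3, 4, 5 or 7.

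**Figure D3:**
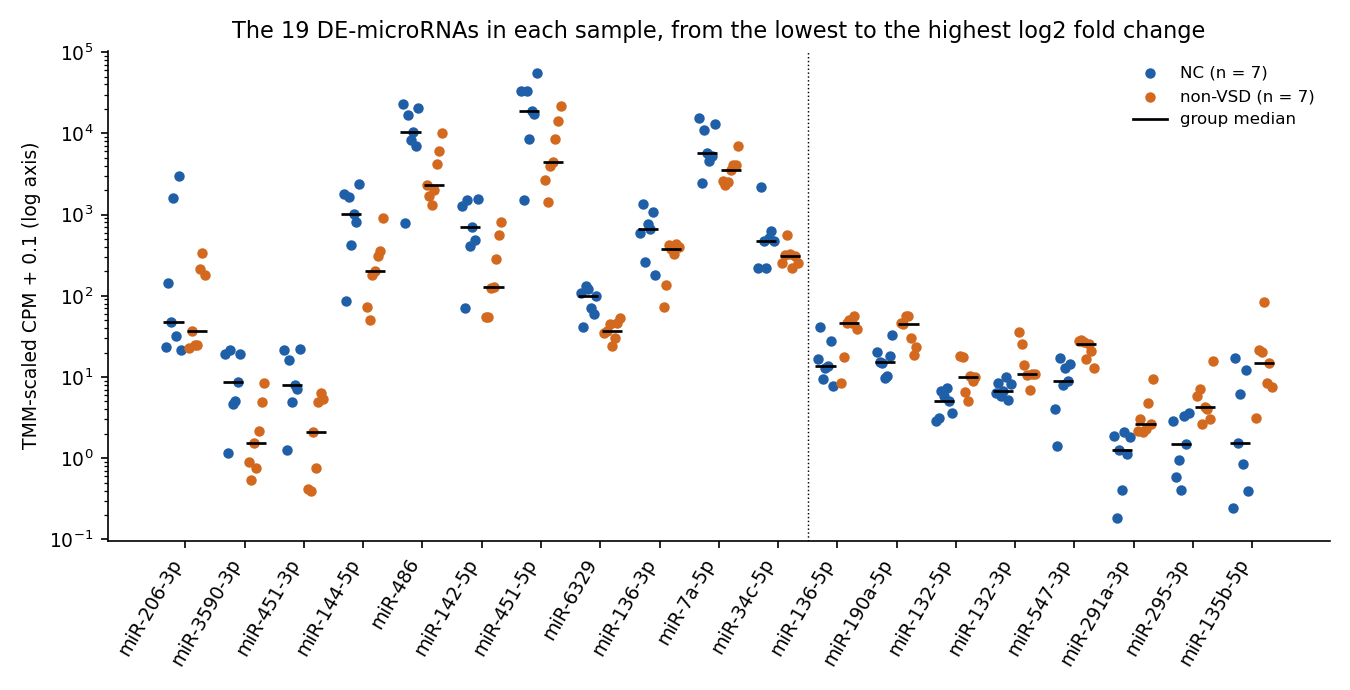
Level (CPM + 0.1, log axis) of the 19 DE-microRNAs in each sample, 7 non-VSD and 7 NC points per microRNA with the group median as a line, ordered from the lowest to the highest log2 fold change. The groups overlap for all 19, and the NC samples of miR-206-3p spread from 21.7 to 3016 CPM.

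The largest group of downregulated microRNAs was that of the red blood cell. Of the 5 microRNAs listed as erythroid markers, 4 were downregulated: miR-144-5p, miR-451-3p, miR-451-5p and miR-486. Over all tested microRNAs, 2.41% were downregulated. The median log2 fold change of the 5 was −1.65. This list, like the others, was chosen with earlier results of these data known. miR-144 and miR-451 come from 1 transcript under control of the erythroid factor GATA1. miR-144-5p was at 50.9 to 905 CPM (median 203) in the non-VSD group and 86.7 to 2372 CPM (median 1003) in controls, and differed by −1.98 on the log2 scale (SE 0.67, edgeR adjusted p = 0.126). For miR-144-3p the value was −1.25 (SE 0.70), which did not pass the test, and −1.44 without NC2, which did at an unadjusted p. miR-451-5p, which is matured by Argonaute 2 without Dicer, lay at 1424 to 21821 CPM (median 4395) against 1527 to 55308 CPM (median 18825). The log2 fold change was −1.56 (SE 0.67, edgeR adjusted p = 0.225), and that of the much rarer miR-451-3p was −2.05 (SE 0.72, edgeR adjusted p = 0.131). miR-451-5p no longer passed the test when any 1 of non-VSD1 to 4 or NC1, 3 or 7 was left out (−1.21 without NC7).

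miR-486, which is made in both red cells and muscle from the ankyrin 1 gene, was measured at 1325 to 10061 CPM (median 2315) against 794 to 23021 CPM (median 10379). It had a log2 fold change of −1.65 (SE 0.59, edgeR adjusted p = 0.145). The lowest control value of miR-486, 794 CPM, was that of NC2. Without NC2 its log2 fold change was −1.86 and the edgeR adjusted p was 0.0376, and that of miR-144-5p was −2.18 with 0.0451. All 5 red cell microRNAs were then lower, with a median of −1.86, whereas scaling to total counts left 3 lower and a median of −1.36. In the summed level of the 5 red cell microRNAs, the non-VSD group spanned 3220 to 33612 CPM (median 6833) and the NC group 2517 to 79413 CPM (median 30892), so that the groups overlapped. In bulk tissue, fewer blood cells in the sample and less RNA per cell cannot be told apart.

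White cell microRNAs did not all move in one direction, with 1 higher and 1 lower of 7 and a median log2 fold change of −0.18. Their summed level was 516 to 2108 CPM (median 624) in the non-VSD group. In the NC group it was 455 to 3359 CPM (median 1459), so the median was lower after exposure but the groups overlapped. The lower member was miR-142-5p, a microRNA of all blood lineages, at 54.1 to 820 CPM (median 129) against 70.9 to 1540 CPM (median 710). A log2 fold change of −1.58 (SE 0.69, edgeR adjusted p = 0.238) was fitted, and the call was lost without any 1 of non-VSD1 to 5 or NC1, 3 or 7 (−1.38 without NC7) and with scaling to total counts. Its partner miR-142-3p had −0.94 (SE 0.65), not past the test. The higher member was miR-155-5p, as described above. The miR-146 pair, induced by inflammatory signalling, share the seed GAGAACU and differed in sign. miR-146a-5p was higher at 265 to 627 CPM (median 339) against 164 to 287 CPM (median 203), with a log2 fold change of 0.83 (SE 0.23, edgeR adjusted p = 0.0911). miR-146b-5p was lower at 570 to 930 CPM (median 704) against 846 to 1804 CPM (median 942), with a log2 fold change of −0.50. The latter did not pass the test without NC3 (−0.34) or with scaling to total counts.

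Other downregulated DE-microRNAs came from different loci. miR-6329 had the lowest p-value of the 11, with 23.7 to 53.1 CPM (median 36.5) against 41.3 to 133 CPM (median 98.5). The log2 fold change was −1.24 (SE 0.27, edgeR adjusted p = 0.0533), and 4 of 7 exposed samples lay below every control. Without NC2 it was −1.37 (edgeR adjusted p = 0.0171). miR-7a-5p, a microRNA abundant in neural and endocrine cells, was at 2325 to 6957 CPM (median 3496) against 2433 to 15251 CPM (median 5758), a log2 fold change of −1.14 (SE 0.38, edgeR adjusted p = 0.126) and of −1.30 without NC2 (edgeR adjusted p = 0.0376). It was the 1 of 5 neural microRNAs that changed. miR-3590-3p lay at 0.435 to 8.39 CPM (median 1.42) against 1.07 to 21.2 CPM (median 8.63), with a log2 fold change of −2.10 (SE 0.71, edgeR adjusted p = 0.126), and rested on 106 and 454 reads per group. miR-136-3p, the opposite arm of the upregulated miR-136-5p, was at 72.6 to 436 CPM (median 376) against 181 to 1335 CPM (median 655). This corresponded to a log2 fold change of −1.16 (SE 0.46, edgeR adjusted p = 0.176), and to −0.92 without NC2, where it no longer passed the test.

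For 2 downregulated DE-microRNAs the call rested on few control libraries. miR-34c-5p, a microRNA of ciliated epithelium, was at 222 to 558 CPM (median 312) against 217 to 2172 CPM (median 474). The difference was −1.06 on the log2 scale (SE 0.45, edgeR adjusted p = 0.218) and −0.39 without NC2. It did not pass the test without NC2 or without non-VSD1, 5 or 7. The 6 ciliated cell microRNAs had a median log2 fold change of −1.06 with all samples and −0.0017 without NC2, and their summed level was 3502 CPM in NC2 against 235 to 785 CPM in the other NC samples. miR-206-3p, a skeletal muscle microRNA with the miR-1 seed GGAAUGU, ranged from 22.7 to 336 CPM (median 36.7) in the non-VSD group and from 21.7 to 3016 CPM (median 48.1) in the NC group. Only NC4 (1605 CPM) and NC6 (3016 CPM) exceeded the non-VSD range. A log2 fold change of −2.55 (SE 1.18, edgeR adjusted p = 0.264) was fitted with all samples and −1.38 without NC6. The call was lost without any 1 of non-VSD1, 2, 3, 4 or 7 or NC4 or 6, and the exact permutation p was 0.487, two-sided.

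With all samples, none of the cardiac muscle microRNAs passed the test. miR-1b had a log2 fold change of −0.42 (SE 0.38) and a level of 31689 to 60063 CPM (median 47010) against 8758 to 139001 CPM (median 60581). For miR-1-3p the log2 fold change was −0.38 (SE 0.49), for miR-133a-3p −0.20 (SE 0.38), for miR-499-5p 0.33 (SE 0.41) and for miR-208a-3p 0.59 (SE 0.34). In the whole list of 12 muscle microRNAs, 1 was lower (miR-206-3p), none was higher, and the median was 0.04. The muscle sums ranged from 53860 to 100830 CPM in the non-VSD group and from 12798 to 233630 CPM in the NC group, so the spread within the controls limited what could be detected. Without NC2, 3 of the 12 were lower at an unadjusted p, miR-1b by −0.62 (SE 0.24), miR-133b-3p by −0.58 (SE 0.19) and miR-206-3p by −2.74 (SE 1.19), and the median was −0.12. With scaling to total counts, 2 of the 12 were higher, none was lower and the median was 0.30.

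Of the endothelial microRNAs, miR-126a-3p was higher, at 17325 to 29073 CPM (median 19957) against 9424 to 21381 CPM (median 11948). The log2 fold change of this microRNA, the main one of vascular endothelium, was 0.77 (SE 0.20, edgeR adjusted p = 0.0911), whereas its partner miR-126a-5p had −0.03 (SE 0.21). The 1 smooth muscle microRNA of 4 that was higher was miR-145-3p, by 0.61 on the log2 scale (SE 0.18). Epithelial (14 tested), mesenchymal (3) and liver and gut (3) microRNAs gave none that passed the test in either direction. Without NC2, 1 epithelial microRNA was higher and the median of that list went from −0.27 to 0.78, and 1 mesenchymal microRNA, miR-199a-3p, was higher by 0.63. With DESeq2 size factors, 1 liver and gut microRNA was lower. The part of these cell types in the results above was not tested.

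**Figure D4:**
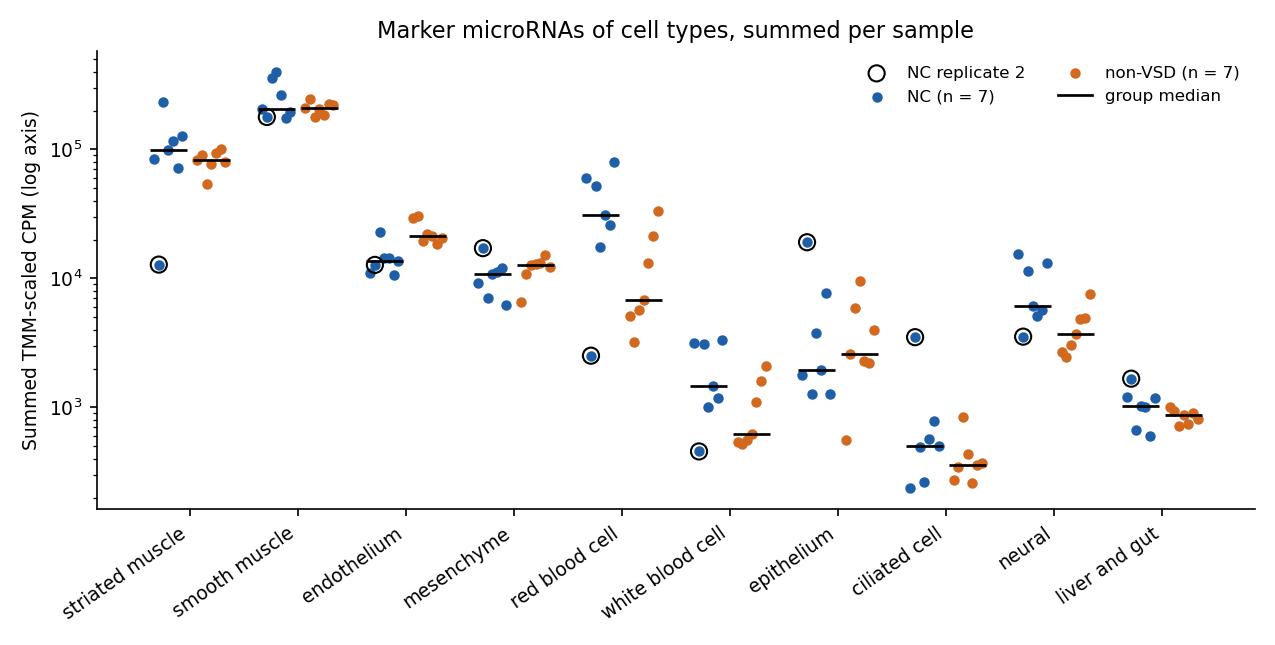
Summed level in CPM (log axis) of each cell type's marker microRNAs, with 1 point per sample. The red cell sums of the non-VSD group (median 6833 CPM) lie mostly below those of the NC group (median 30892 CPM), and NC2 is the lowest NC sample for muscle and red cell microRNAs and the highest for epithelial ones.

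Among microRNA families, changes at smaller fold were also found. Over all tested microRNAs, 8.55% were higher, 8.99% were lower and 43.4% had a positive log2 fold change. No family was tested as a set. All 8 members of the miR-130 and miR-301 family had positive log2 fold changes (median 0.40), and 4 of them were higher: miR-301a-3p by 0.89, miR-301b-3p by 0.73, miR-130a-3p by 0.67 and miR-130a-5p by 0.39. miR-301b-3p no longer passed the test in 9 and miR-130a-5p in 11 of the 14 fits with 1 sample left out. Without NC2, 2 of the 8 were higher. Of the miR-29 family, which represses collagen and other matrix genes, 3 of 4 were higher. miR-29b-3p lay at 5.04 to 11.1 CPM (median 6.73) against 1.74 to 5.18 CPM (median 3.78), and its log2 fold change of 0.995 (SE 0.28, edgeR adjusted p = 0.0911) was just under the 2-fold threshold. miR-29c-3p was higher by 0.60 and miR-29c-5p by 0.66, whereas miR-29a-3p had 0.08 (SE 0.18). The call of miR-29c-3p was lost without any 1 of non-VSD3 or NC1, 5 or 6 (0.49 without NC1). In the miR-15/16 family 2 of 10 were higher, miR-322-5p by 0.67 and miR-497-5p by 0.73, and 8 did not pass the test, with 5 of 10 positive and a median of −0.02.

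The counts of the next families also stand beside 8.99% lower and 8.55% higher over all tested microRNAs. The proliferation-associated miR-17-92 cluster and its paralogs had 5 of 20 lower and 1 higher, with a median of −0.24. The lower ones were miR-92a-3p (−0.70), miR-106b-3p (−0.89), miR-25-3p (−0.55), miR-19b-3p (−0.53) and miR-93-5p (−0.48). Without NC3, miR-106b-3p (−0.58), miR-25-3p (−0.36) and miR-93-5p (−0.42) no longer passed the test. In all, miR-25-3p lost the call in 6 and miR-93-5p in 9 of the 14 fits with 1 sample left out, and scaling to total counts left 1 of the 20 lower. miR-30a-5p, among the most abundant microRNAs here, lay at 22688 to 52007 CPM (median 32544) against 50018 to 65558 CPM (median 54932). With a log2 fold change of −0.76 (SE 0.18, edgeR adjusted p = 0.0686), it was below every control in 6 of 7 exposed samples, and without NC2 the value was −0.79 (edgeR adjusted p = 0.0376). miR-423-5p was also below every control in 6 of 7, by −0.67 on the log2 scale (SE 0.18). Of the let-7 family, the differentiation-associated microRNAs, 2 of 20 were lower with TMM scaling (let-7f-5p by −0.36 and let-7f-2-3p by −0.51), whereas with scaling to total counts 4 were higher and none was lower. Among 70 listed microRNAs of the imprinted Dlk1-Dio3 region, only the arms of miR-136 passed the test, with a list median of −0.30. miR-341, a neighbour of miR-370 of that region, was not on the list and was lower by −0.99. Its value without NC2 was −0.68, which did not pass the test. Without NC2, 3 of the 70 were higher and none was lower.

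Because each hairpin can release both arms, the arms were compared within hairpins. Both arms were tested for 169 hairpins, and their log2 fold changes had opposite signs in 74 (43.8%). In 13 hairpins both arms had an unadjusted p under 0.05, of which 6 differed in direction and 7 moved alike. The arms of miR-132, miR-29c, miR-24-2 and miR-130a were both higher, and those of let-7f-2, miR-193b and miR-451 were both lower. The abundant arms let-7f-5p, miR-24-3p and miR-92a-3p are each made from more than 1 hairpin, so their values are not those of a single one. In miR-136, miR-542, miR-92a-1 and miR-674 the 5p arm was higher and the 3p arm lower, whereas in miR-450a and miR-340 the 5p arm was lower and the 3p arm higher. With scaling to total counts, miR-542-3p (−0.35), miR-674-3p (−0.27), miR-450a-5p (−0.23), miR-340-5p (−0.44) and both arms of miR-136 (1.12 and −1.04) kept their sign but did not pass the test, which leaves miR-92a-1 of the 6. miR-542-5p, for example, lay at 36.7 to 81.8 CPM (median 49.9) against 29.1 to 41 CPM (median 32.4), a log2 fold change of 0.68 (SE 0.19), while miR-542-3p, at 4737 to 7991 CPM, was lower. For miR-340 the 3p arm had a log2 fold change of 0.84 (SE 0.24) and the 5p arm −0.65 (SE 0.25), and for miR-674 the 5p arm had 0.45 (SE 0.18) and the 3p arm −0.46 (SE 0.17). Besides the arms of miR-136 and miR-451 described above, miR-92a-1-5p, miR-674-5p, miR-193b-5p, miR-29c-3p and miR-130a-5p did not pass the test in at least 3 of the 14 fits with 1 sample left out.

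**Figure D5:**
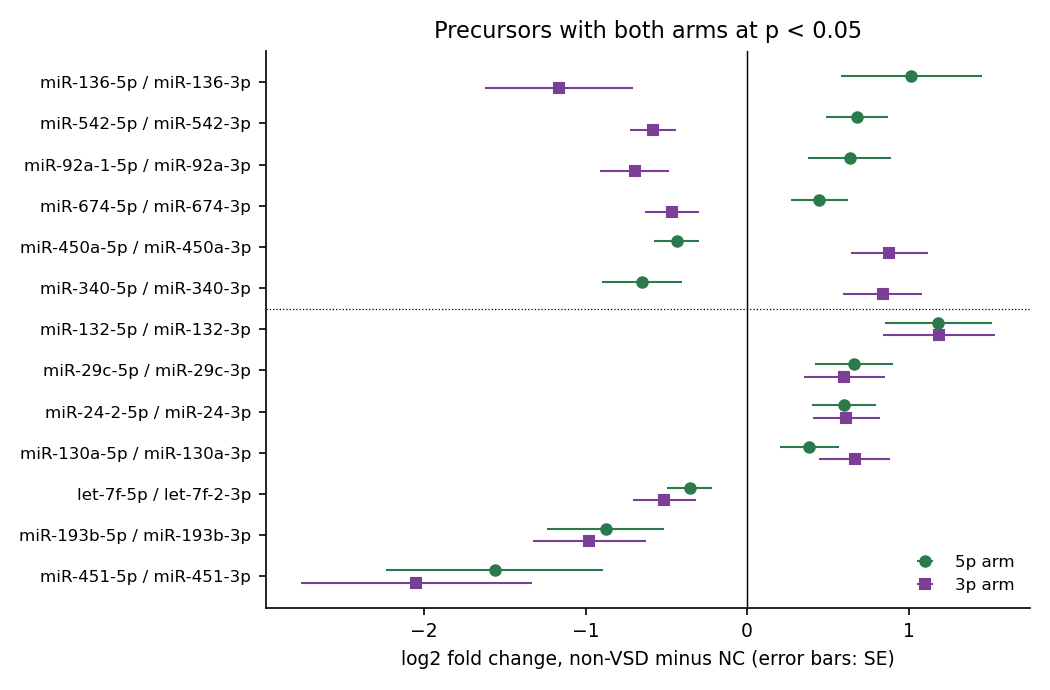
Log2 fold change (non-VSD over NC) of the 5p arm (circles) and the 3p arm (squares) of the 13 hairpins with both arms at an unadjusted p under 0.05, with bars of 1 SE. In the upper 6 hairpins the arms lie on opposite sides of 0, as for miR-136 (1.02 and −1.16), and in the lower 7 they lie on the same side.

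miR-542 and miR-450a belong to the same X-linked cluster as miR-322, miR-503 and miR-351, and its members did not all differ in one direction. Of its 12 microRNAs tested, 3 were higher (miR-450a-3p, miR-542-5p and miR-322-5p), 2 were lower (miR-542-3p and miR-450a-5p), and the median log2 fold change was 0.30. Neither of the lower ones passed the test with scaling to total counts (−0.35 and −0.23). miR-450a-3p lay at 8.22 to 19.5 CPM (median 13) against 4.89 to 8.76 CPM (median 7.88), and miR-450a-5p at 1930 to 2853 CPM (median 2165) against 2719 to 3641 CPM (median 3006). Each of them separated 6 of 7 exposed samples from every control.

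The calls were also described by seed, level and base composition. The 419 matched microRNAs had 338 different seeds, 50 of which were shared by 2 or more. Of these 50 shared seeds, 24 included at least 1 microRNA with an unadjusted p under 0.05, and 2 included calls in both directions, that of the miR-146 pair and that of the miR-92a, miR-25 and miR-32 group (AUUGCAC). In the AUUGCAC group only miR-32-5p was higher, by 0.71, and it did not pass the test without NC2 (0.68). Shared seeds whose members were both called in one direction included those of the miR-101 pair (ACAGUAC) and of miR-28-5p and miR-708-5p (AGGAGCU), which were higher by 0.46 and 0.51, the latter not without any 1 of non-VSD4, NC4 or NC5. Ordered by mean level, the share with an unadjusted p under 0.05 was 8.8% among the 114 microRNAs of lowest level and 28.9% among the 114 of highest level, and the median SE of the log2 fold change was 0.42 and 0.25. Ordered by GC content of the mature sequence, 11 of the 17 matched DE-microRNAs lay among the 105 microRNAs of lowest GC (22.7% to 40.9%) and none among the 105 of highest GC (54.5% to 77.3%). Ties at 40.9%, where the lowest group ends and the next begins, were ordered by p-value. miR-295-3p, miR-3590-3p and miR-136-3p lay at 40.9%, so the count of 11 rests in part on that order.

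DMO-exposed fetuses with the defect (the VSD group, 7 samples) were compared with the same 7 NC samples, so their log2 fold changes are given only side by side with those of the non-VSD group. Shared controls by themselves favour similar values in the VSD and non-VSD groups. As examples, miR-218a-5p had log2 fold changes of 0.61 in the VSD and 0.88 in the non-VSD group, and miR-101b-3p had −0.69 and −0.78. For miR-190a-5p they were 1.39 and 1.17, for miR-451-5p −1.89 and −1.56, and for miR-486 −2.36 and −1.65. A direct test of VSD against non-VSD myocardium, which needs no control, gave an unadjusted p under 0.05 for 56 of 483 microRNAs (11.6%), 25 DE-microRNAs (5.18%) and 0 (0%) under 0.05 after adjustment in edgeR. Among the 19 DE-microRNAs, 4 had an unadjusted p under 0.05 in it, each with an adjusted p of 0.426 in edgeR. miR-132-5p was lower in the VSD group by −0.79 on the log2 scale (SE 0.30), miR-291a-3p by −1.44 (SE 0.54) and miR-547-3p by −1.26 (SE 0.50), whereas miR-34c-5p was higher by 1.19 (SE 0.40). The log2 fold changes of these 4 against NC were 0.36, 0.17, −0.02 and 0.09 in the VSD group. The 19 were chosen on the same non-VSD samples that enter the direct test. That choice by itself favours VSD values nearer to NC. After adjustment, a difference between exposed fetuses with and without the defect was not detected for any of the 19. The other 15 DE-microRNAs did not have an unadjusted p under 0.05 in the direct test either.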

How the data were processed

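The authors deposited raw counts of reads per mature microRNA for each myocardium sample. Per the labels and methods, reads were demultiplexed with bcl2fastq 2.19, quality-filtered with the FASTX-Toolkit and compared with DESeq and limma. The counter, annotation and genome build are not given in the sources used here. The 28 columns of normalized values and 6 columns of the authors' own comparisons (log2 fold changes, fold changes and p-values) in the myocardium tables were not used. Counts were filtered with filterByExpr (minimum count 10, minimum total 15), scaled by TMM and tested with edgeR 4.0.16 (quasi-likelihood) in R 4.3.3, with no covariate. A prior count of 2 was used for log2 CPM only. CPM values are TMM-scaled. Alternatives used limma 3.58.1 and DESeq2 1.42.0, other scalings and filters, a fit of 21 samples, and each sample left out in turn. Figures used Python 3.11.15 and matplotlib 3.10.9. The fit was checked on simulated counts. The floors cover counting error only, whereas the SEs come from the quasi-likelihood fit and include the spread between samples.

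Named microRNAs were those that passed the study's thresholds or an adjusted p of 0.05, their opposite arms, the 12 lowest p-values in each direction, list members with p under 0.05, and the 2 most abundant of each marker list. miR-340-5p, miR-674, miR-193b, miR-24, miR-28-5p, miR-708-5p, miR-212-3p, miR-133a-3p, miR-208a-3p, miR-499-5p and miR-29a-3p were named after their values were seen. miR-341 and miR-32-5p were also named outside these rules. Members and lists were chosen with earlier results of these data known. Replicate numbers did not pair the samples: correlations of deviations between same-numbered samples ran from −0.642 to 0.331, with 3 of 7 over 0.1.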

Additional observations from a re-analysis of the deposited data

Results flagged for a closer look

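A sample lay far from the other 6 of its group in 21 of 230 groups examined (9.13%), where chance alone gives about 1 in 20. The ratio given is the gap to the nearest sample over the whole range of the group, both on the scale of log2(CPM + 1). NC2 was the sample in question for miR-486 (ratio 0.65; 794 CPM against 7079 to 23020), miR-142-5p (0.573), miR-155-5p (0.592) and miR-1b (0.582), low in each. It was also low in the summed levels of muscle microRNAs (0.592) and of the miR-290-295 cluster (0.578). NC3 was high for miR-126a-3p (0.589; 21381 CPM against 9424 to 13190) and stood apart for miR-145-3p (0.612), miR-146b-5p (0.666), the endothelial sum (0.598) and the miR-146 sum (0.611). Sample non-VSD1 stood apart for miR-29c-5p (0.575), miR-130a-5p (0.86), miR-199a-5p (0.604), miR-199a-3p (0.588) and the mesenchymal sum (0.594). Sample non-VSD3 did so for miR-7a-1-3p (0.597) and the muscle (0.579), ciliated cell (0.572) and let-7 (0.637) sums, and non-VSD7 for the miR-290-295 sum (0.631).

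In the direct edgeR test of VSD against non-VSD, only the 66 named microRNAs with an unadjusted p under 0.05 against NC were examined. The 22 other named microRNAs could not be flagged. Of the 66, 8 had an unadjusted p under 0.05 in the direct test, beside 56 of all 483 tested (11.6%). They were miR-132-5p (0.0163), miR-291a-3p (0.0139), miR-547-3p (0.01895), miR-34c-5p (0.00744), miR-126a-3p (0.0398), miR-30a-5p (0.0350), miR-19b-3p (0.0317) and miR-24-3p (0.0311). None passed 0.05 after adjustment.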

How the results depend on the processing

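The 19 DE-microRNAs became 35 with no filter on low counts and 9 at an unadjusted p under 0.01, and 16 to 26 when 1 sample was left out (16 without non-VSD1, 26 without NC3). The count at an adjusted p under 0.05, 1 in the reported fit, was 6 with DESeq2 size factors, 22 with total counts, 3 with no filter, 8 with at least 10 counts in every sample, 47 with DESeq2, 7 in the fit of 21 samples and 0 to 19 with 1 sample left out (19 without NC2). The 80 with an unadjusted p under 0.05 became 69 to 90 with 1 sample left out. The log2 difference in total counts, −0.17, became −0.27 to −0.07.

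Adding the replicate number as a block gave 50 microRNAs at an unadjusted p under 0.05 and 0 at an adjusted p under 0.05, and 14 in place of 25 DE-microRNAs between VSD and non-VSD. Of 7 samples, 1 correlated best with its own number.

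Of 88 named microRNAs, the 66 with an unadjusted p under 0.05 gave 1511 values over 23 alternatives, of which 1355 kept direction and side of the threshold, 156 kept direction only and 0 reversed. Left-out samples kept the call of 48 of the 66 throughout, and every alternative that of 36. Reversals occurred in 8 of the 22 others. These were miR-449a-5p (DESeq2 1.07, limma 0.21, block 0.54, samples left out −2.16 to 1.21), miR-126a-5p (total counts 0.14, left out −0.14 to 0.10) and miR-200b-3p (limma 0.56, block 0.51, left out −0.82 to 0.54). The same held for miR-199a-5p (total counts 0.11, limma 0.0202, block 0.0181, left out −0.15 to 0.11), miR-9a-5p (total counts 0.0585, left out −0.34 to 0.24) and miR-1-3p (total counts 0.0052, limma 0.0631, left out −0.59 to 0.0395). It also held for miR-145-5p (DESeq2 size factors and DESeq2 −0.0113, no filter −0.0145, 10 counts −0.0047, 21 samples −0.0193, left out −0.0861 to 0.12) and miR-547-5p (left out −0.14 to 0.42). The cause was not tested. Depth limits microRNAs below about 1 CPM.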
